A study of Homo sapiens with 8 samples.

Results

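The miR-106b-25 and miR-106a-363 clusters are paralogs of the miR-17-92 cluster, and 8 of their mature products were followed here, hsa-miR-106b-5p, hsa-miR-106b-3p, hsa-miR-93-5p and hsa-miR-25-3p of the first, and hsa-miR-106a-5p, hsa-miR-20b-5p, hsa-miR-18b-5p and hsa-miR-363-3p of the second. The species prefix is left out below. They were chosen by name rather than by their levels, though with earlier results of these data known. They make up 8 of the 1780 miRNAs in the count table. Small RNA was sequenced from DLD1 and HT29, established lines of human colorectal adenocarcinoma, after 6 days as a flat monolayer (2D) or as multicellular spheroids (MCS), with 2 replicate libraries in each of the 4 groups. DLD1 cells were kept in RPMI and seeded at 35000 cells per flask in 2D or 7000 per agarose-coated well in MCS, whereas HT29 cells were kept in DMEM and seeded at 100000 or 3500. No group received a drug or carried an engineered allele. The small RNA kit was version 3 for DLD1 and version 2 for HT29, so that line, medium and kit cannot be told apart, and levels were compared between cultures within a line. Shares and ratios of counts that differ between the lines below carry the same limit.

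The libraries held 10495634 to 26211524 miRNA counts, and 3 counts corresponded to 0.114 to 0.286 CPM (counts scaled to a common library total). Replicate 1 of HT29 was the shallower library in both cultures, with 10495634 counts in 2D and 10745232 in MCS against 26211524 and 17182624 in replicate 2. All 5 epithelial marker miRNAs (miR-200c-3p, miR-141-3p, miR-192-5p, miR-194-5p and miR-215-5p) were listed, and their summed level was 56916 to 68079 CPM in DLD1 2D, 101201 to 103957 in DLD1 MCS, 32689 to 59546 in HT29 2D and 98162 to 128568 in HT29 MCS. In DLD1 most of this sum was miR-200c-3p (53618 and 65269 CPM in 2D, 94141 and 92319 in MCS). miR-215-5p was lower in DLD1 MCS (78.6 and 66.9 CPM) than in 2D (87.6 and 94.5), whereas the other epithelial markers were higher in both MCS libraries. Markers of blood cells (3 of 4 listed), of stroma and muscle (3 of 3) and of endothelium (1 of 1) summed to at most 241, 10.8 and 94.0 CPM, and miR-451a of red blood cells did not exceed 0.885 CPM. The blood sum was 13.2 to 32.1 CPM in DLD1 2D and 42.3 to 55.3 in DLD1 MCS, and 12.1 to 54.5 in HT29 2D and 59.3 to 241 in HT29 MCS. In DLD1 it was mostly miR-142-3p (31.2 and 12.9 CPM in 2D, 55.1 and 42.2 in MCS), with miR-150-5p at 0. In HT29 it was mostly miR-142-3p and miR-150-5p. The part of the shifts in these sums in the values below was not tested.

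A miRNA cluster is transcribed as 1 primary RNA whose hairpins are cut out one by one, and each hairpin can give a mature strand from its 5′ and from its 3′ arm. The mature strand guides a silencing complex to messenger RNAs, mainly by pairing of bases 2 to 8, the seed. The miR-17 family, to which miR-106b-5p, miR-93-5p, miR-106a-5p and miR-20b-5p belong by their seed, is known for targeting inhibitors of the cell cycle and pro-apoptotic genes and is often abundant in tumour cells, while miR-25 and miR-363 carry the seed of miR-92a.

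The mature sequences below, from RefSeq (GRCh38.p14), were found for 8 of 8 members and are shown because the members and their miR-17-92 relatives differ by so few bases. They are written 5′ to 3′ with the seed in capitals. The first group carries the seed AAAGUGC, with miR-17-5p and miR-20a-5p as relatives:
miR-106b-5p: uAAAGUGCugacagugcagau
miR-93-5p: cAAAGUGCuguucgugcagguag
miR-106a-5p: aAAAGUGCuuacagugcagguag
miR-17-5p: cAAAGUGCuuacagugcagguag
miR-20b-5p: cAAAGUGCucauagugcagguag
miR-20a-5p: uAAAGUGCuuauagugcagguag
The second carries AUUGCAC, the third AAGGUGC, and miR-106b-3p stands alone:
miR-25-3p: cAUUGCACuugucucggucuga
miR-363-3p: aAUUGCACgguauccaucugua
miR-92a-3p: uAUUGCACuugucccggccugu
miR-18b-5p: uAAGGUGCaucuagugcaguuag
miR-18a-5p: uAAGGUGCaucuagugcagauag
miR-106b-3p: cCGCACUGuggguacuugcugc

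Counted from 1 at the 5′ end, miR-106a-5p differed from miR-17-5p by 1 base (A1C), miR-18b-5p from miR-18a-5p by 1 base (U20A) and miR-20b-5p from miR-20a-5p by 2 bases (C1U and C10U). The miR-106b-25 products stood further apart, miR-106b-5p by 3 bases from miR-17-5p, miR-93-5p by 4 from miR-17-5p and miR-25-3p by 4 from miR-92a-3p. How reads that fit several mature sequences were assigned is not given in the sources used here, so the counts of miR-106a-5p, miR-18b-5p and miR-20b-5p are uncertain next to those of their relatives.

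On GRCh37, the build of the study, the miR-106b-25 hairpins lay within 515 bases of the minus strand of chromosome 7, MIR106B at 99691616 to 99691697, MIR93 at 99691391 to 99691470 and MIR25 at 99691183 to 99691266. They fell inside MCM7, the gene of a subunit of the replicative helicase, on its own strand, and were intronic in the 9 MCM7 transcripts that span them, except that an exon of 1 transcript overlapped MIR93. The miR-106a-363 hairpins lay within 901 bases of the minus strand of chromosome X, MIR106A at 133304228 to 133304308, MIR18B at 133304064 to 133304146, MIR20B at 133303839 to 133303907 and MIR363 at 133303408 to 133303482, with MIR19B2 and MIR92A2 between them. All 6 overlapped exons of each of the 3 transcripts of the long non-coding gene ENSG00000283638. MIR19B2 and MIR92A2 give miR-19b-3p and miR-92a-3p, which the miR-17-92 cluster gives as well, and their counts cannot be told apart by locus.

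The followed products of the clusters were counted at very different levels. The 4 miR-106b-25 products together outnumbered the 4 miR-106a-363 products by 955 to 1189 times in the DLD1 libraries. In the HT29 libraries they did so by 474 to 578 times. The miR-106a-363 sum leaves out miR-19b-3p and miR-92a-3p, which MIR19B2 and MIR92A2 also give. The counts of miR-106a-5p, miR-20b-5p and miR-18b-5p are uncertain as well, so the ratio does not measure the expression of the whole clusters. Among all miRNAs of a library, miR-93-5p ranked from 17 to 33, miR-25-3p from 20 to 60, miR-106b-5p from 30 to 64 and miR-106b-3p from 62 to 87, whereas miR-106a-5p ranked from 247 to 325. The levels below are normalized CPM, that is, counts scaled by the product of library total and upper quartile factor.

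miR-93-5p, the leading product of the MIR93 hairpin, stood at 9290 and 9495 in DLD1 2D, 10537 and 12638 in DLD1 MCS, 4245 and 3920 in HT29 2D, and 3001 and 4734 in HT29 MCS. In DLD1 the MCS libraries lay above both 2D libraries on this scale but overlapped them per library total (10303 and 11084 CPM in 2D, 10912 and 9426 in MCS), and in HT29 the MCS libraries lay on either side of the 2D libraries. miR-25-3p stood at 8738 and 8709 in DLD1 2D, 7883 and 9990 in DLD1 MCS, 2123 and 1299 in HT29 2D, and 1544 and 1131 in HT29 MCS. The cultures overlapped in both lines for miR-25-3p, whereas per library total its DLD1 MCS libraries (8164 and 7451 CPM) lay below those of 2D (9691 and 10167 CPM).

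miR-106b-5p had 2284 and 1828 normalized CPM in DLD1 2D, 2423 and 2720 in DLD1 MCS, 904 and 2355 in HT29 2D, and 963 and 4000 in HT29 MCS. The MCS libraries were the higher ones in DLD1, again on this scale but not per library total (2533 and 2134 CPM in 2D, 2510 and 2028 in MCS), while in HT29 replicate 2 was above replicate 1 in both cultures by more than the cultures differed. miR-106b-3p, from the other arm of the same hairpin, had 1038 and 1082 in DLD1 2D, 1323 and 1461 in DLD1 MCS, 767 and 452 in HT29 2D, and 513 and 412 in HT29 MCS. Here too MCS lay above 2D in DLD1, with an overlap per library total (1151 and 1264 CPM in 2D, 1370 and 1090 in MCS). The cultures overlapped in HT29. In normalized CPM the HT29 replicates of miR-106b-3p stood in the opposite order to those of miR-106b-5p. Per library total they stood in the same order. HT29 miR-106b-3p then had 401 and 750 CPM in 2D and 381 and 641 in MCS, and miR-106b-5p 472 and 3910 in 2D and 714 and 6221 in MCS.

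miR-106a-5p, the most counted of the 4 X-linked members, had 21.6 and 16.7 normalized CPM in DLD1 2D, 18.8 and 20.4 in DLD1 MCS, 9.49 and 11.0 in HT29 2D, and 6.40 and 17.6 in HT29 MCS. The cultures overlapped in both lines, although per library total the DLD1 MCS libraries (19.4 and 15.2 CPM) lay below the 2D libraries (23.9 and 19.5 CPM). miR-20b-5p was counted 8 and 21 times in DLD1 2D, 17 and 21 times in DLD1 MCS, 37 and 96 times in HT29 2D, and 23 and 66 times in HT29 MCS. miR-18b-5p was counted 6 and 9 times in DLD1 2D, 8 and 14 times in DLD1 MCS, 1 and 30 times in HT29 2D, and 12 and 28 times in HT29 MCS. Both stayed below the mean of 10 CPM required for testing. miR-363-3p had 0 counts in all 4 DLD1 libraries, which allows a level of up to 0.118 to 0.190 CPM per library, and 3 and 0 counts in HT29 2D and 0 and 1 in HT29 MCS. It was not detectable in DLD1 at this depth, and the HT29 counts permit no comparison of cultures.

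**Figure D1:**
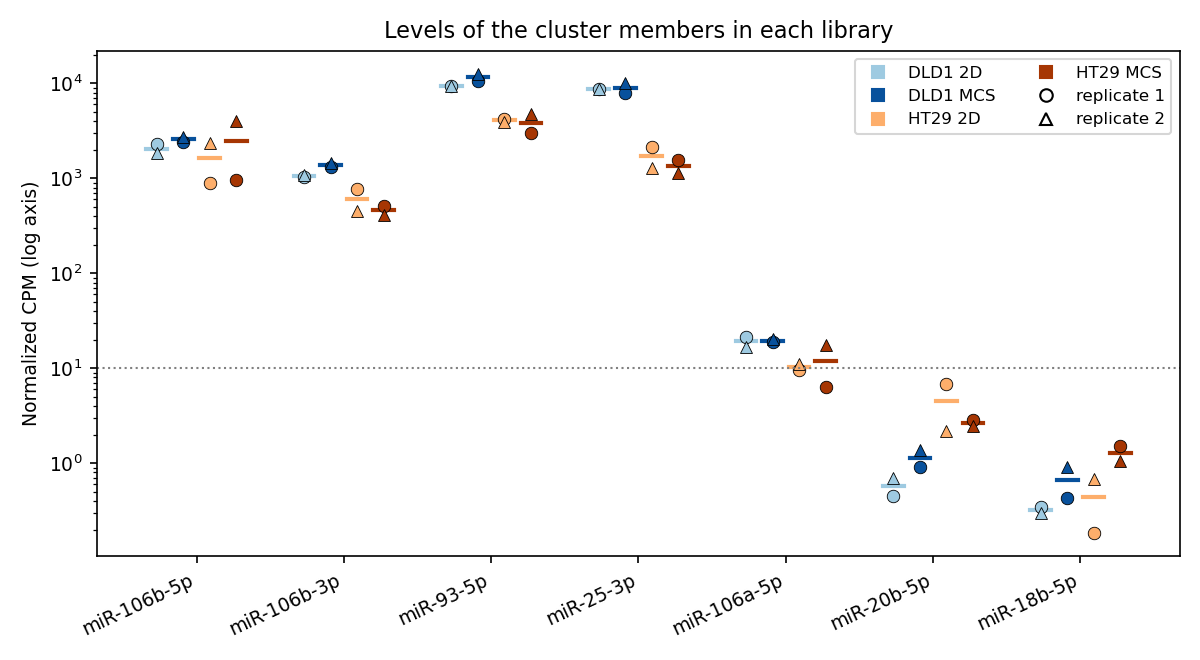
Levels of 7 members in each library, as normalized CPM on a log axis, with circles for replicate 1, triangles for replicate 2, short bars for the mean of 2 libraries and a dotted line at 10 CPM. miR-93-5p and miR-25-3p lead in DLD1 at 7883 to 12638, miR-106a-5p lies at 6.40 to 21.6, and the HT29 replicates of miR-106b-5p stand apart (904 and 2355 in 2D). miR-363-3p, at 0 counts in most libraries, is not drawn.

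The comparison of MCS with 2D asks which miRNAs respond to growth as spheroids. A miRNA was called up- or down-regulated at a fold change of at least 1.5 with an adjusted p-value under 0.05 in edgeR's quasi-likelihood test, and 5 of the 8 members passed the filter on low values in each line. None of these 5 was called in DLD1, where 143 of 346 miRNAs were called (41.3%), 103 of them up-regulated (29.8%) and 40 down-regulated (11.6%). None was called in HT29, where 0 of 301 miRNAs were called (0.0%), 12 had an unadjusted p-value under 0.05 (3.99%), and DESeq2 and edgeR's exact test called 12 and 5. No member had an unadjusted p-value under 0.05 in either line, against 48.6% of the miRNAs tested in DLD1.

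In DLD1, miR-106b-3p had the highest estimate of the 5, a log2 fold change of 0.39 ± 0.23 (SE, n = 2 per culture) with a 95% interval of -0.06 to 0.84 and an edgeR adjusted p of 0.153. miR-106b-5p followed with 0.32 ± 0.23 (-0.14 to 0.78, edgeR adjusted p = 0.273) and miR-93-5p with 0.30 ± 0.27 (-0.22 to 0.83, edgeR adjusted p = 0.373). miR-25-3p and miR-106a-5p lay near 0, with 0.03 ± 0.26 (-0.48 to 0.55) and 0.04 ± 0.34 (-0.63 to 0.71) and edgeR adjusted p of 0.916 and 0.934. As folds, the upper ends of these intervals were 1.79 for miR-106b-3p, 1.72 for miR-106b-5p, 1.77 for miR-93-5p, 1.46 for miR-25-3p and 1.63 for miR-106a-5p. Changes above 1.5-fold were thus left within the interval for all but miR-25-3p. In the DLD1 fit the spread behind these SEs and intervals was shared over all tested miRNAs. They therefore do not describe the spread of a member's own 2 libraries per culture. In the HT29 fit below, shared spread and the miRNA's own spread both entered. The MCS libraries lay above both 2D libraries for 3 of the 5 and below them for 0, where 70.8% of all tested miRNAs did not overlap between the cultures, 45.4% lying above and 25.4% below, and the median of the 5 was 0.30 against 0.23 over all 346. With library totals in place of upper quartile factors, 0 of the 5 lay above and 2 below, where 29.5% of all tested miRNAs lay above and 42.5% below.

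In HT29 the intervals were wider. miR-106b-5p had a log2 fold change of 0.61 ± 0.86 (SE, n = 2 per culture; 95% interval -1.63 to 2.84), miR-106a-5p of 0.24 ± 0.61 (-1.34 to 1.81) and miR-93-5p of -0.08 ± 0.46 (-1.26 to 1.11). miR-25-3p and miR-106b-3p had -0.36 ± 0.47 (-1.56 to 0.85) and -0.40 ± 0.47 (-1.61 to 0.81). The edgeR adjusted p was 0.977 for each of the 5. The cultures overlapped for all 5, where 28.6% of the tested miRNAs did not overlap (17.9% above and 10.6% below), and the median of the 5 was -0.08 against 0.03 over all 301. The median absolute log2 difference between the replicates of a culture was 0.62 in 2D and 0.71 in MCS in HT29, against 0.21 and 0.33 in DLD1.

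**Figure D2:**
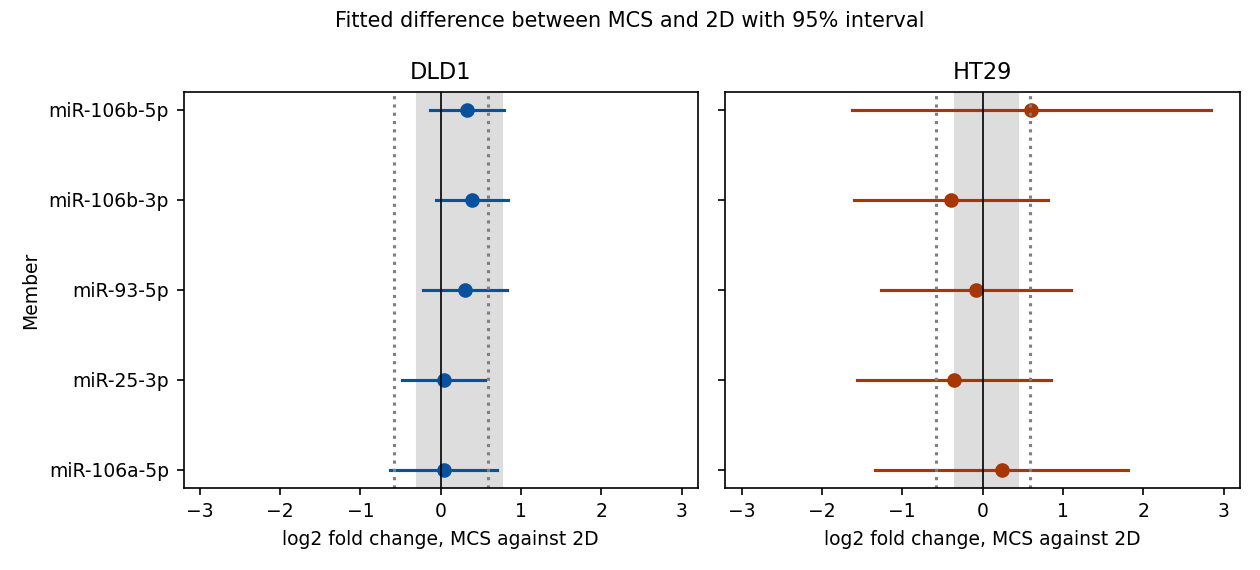
Fitted log2 fold change of MCS against 2D for the 5 tested members in each line, with points for the estimates, lines for 95% intervals, dotted lines at a fold of 1.5 either way, and a grey band from the 25th to the 75th percentile of all tested miRNAs (-0.30 to 0.77 in DLD1, -0.34 to 0.43 in HT29). Every interval crosses 0, and those of HT29 are the wider ones, miR-106b-5p reaching from -1.63 to 2.84.

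Whether the lines responded differently was tested by an interaction term of line and culture in the 8 libraries, which called 0 of 250 miRNAs with edgeR (0.0%), while 23 had an unadjusted p-value under 0.05 (9.2%) and DESeq2 called 21. The estimates, HT29 response minus DLD1 response on the log2 scale, were -0.81 ± 0.46 (SE) for miR-106b-3p, -0.41 ± 0.42 for miR-93-5p, -0.40 ± 0.47 for miR-25-3p, 0.17 ± 0.64 for miR-106a-5p and 0.24 ± 0.96 for miR-106b-5p. The edgeR adjusted p ranged from 0.674 to 0.960. The 95% interval for miR-106b-3p, -1.90 to 0.28, included 0, as did those of the other 4. A difference between the lines was thus not shown for any member.

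In DLD1 the sign of the members' fold changes depended on how the libraries were scaled, so that the directions given above hold for upper quartile factors. The median over all tested miRNAs moved from 0.23 with upper quartile factors to 0.11 with the size factors of DESeq2 (RLE), 0.02 with TMM factors, -0.14 with library totals and -0.22 with the upper quartile of tested miRNAs alone, and the 143 calls, 103 up and 40 down, became 60 up and 83 down with library totals. miR-93-5p went from 0.30 to -0.07 with library totals and miR-25-3p from 0.03 to -0.35. Relative to the median of all tested miRNAs the members hardly moved over the 5 scalings. miR-106b-3p stayed 0.16 to 0.17 above that median, miR-106b-5p 0.08 to 0.10 above and miR-93-5p 0.06 to 0.08 above, while miR-25-3p lay at -0.21 to -0.19 and miR-106a-5p at -0.20 to -0.18 relative to it. All of these distances were smaller than the standard errors of the fold changes with upper quartile factors given above.

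**Figure D3:**
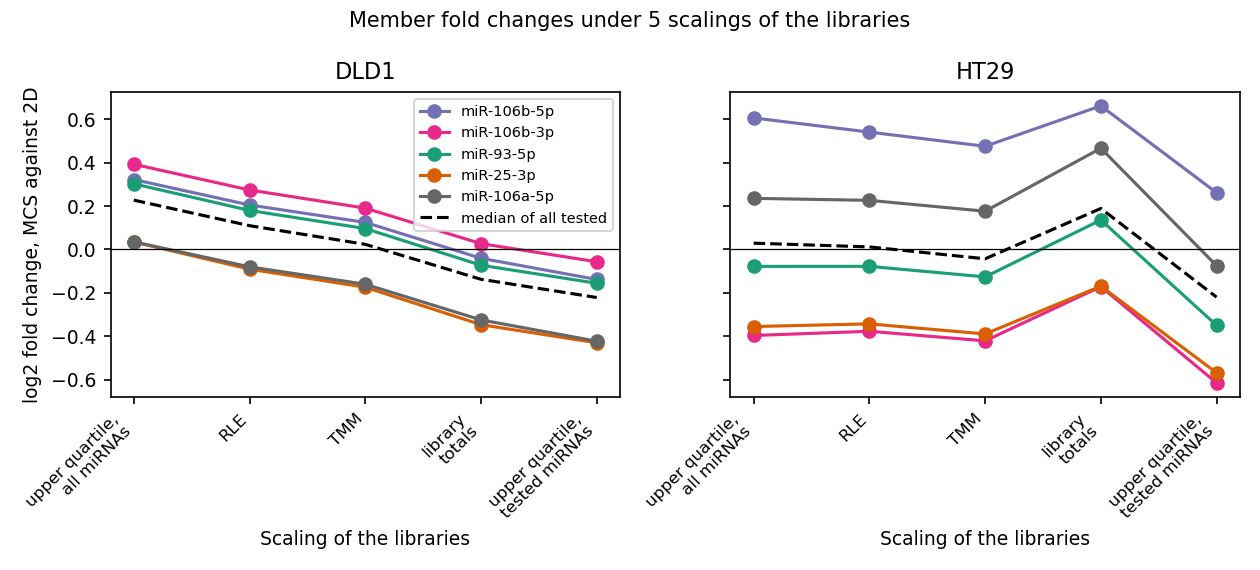
Log2 fold change of MCS against 2D for the 5 tested members under 5 scalings of the libraries, joined by lines for legibility, with the median of all tested miRNAs dashed. In DLD1 the members move in parallel with the median, which falls from 0.23 to -0.22, and in HT29 miR-106b-5p stays highest under each scaling.

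The share of all miRNA counts is the library total scale, 1 of the 5 scalings above, whereas ratios between miRNAs of a library do not depend on the scaling. The 4 miR-106b-25 products took 2.37% and 2.46% of all miRNA counts in DLD1 2D and 2.30% and 2.00% in DLD1 MCS, so that both MCS libraries lay below both 2D libraries on this scale. In HT29 they took 0.420% and 1.33% in 2D and 0.446% and 1.60% in MCS, so that the replicate numbers differed more than the cultures. The 4 miR-106a-363 products took 0.00248% and 0.00207% in DLD1 2D, 0.00208% and 0.00170% in DLD1 MCS, 0.000886% and 0.00230% in HT29 2D, and 0.000800% and 0.00329% in HT29 MCS.

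miR-93-5p held a steady part of the miR-106b-25 counts, 43.5% to 47.5% in DLD1 and 46.1% to 52.8% in HT29. miR-25-3p made up 40.9% and 41.2% in DLD1 2D and 35.6% and 37.3% in DLD1 MCS. It made up 26.4%, 16.2%, 25.6% and 11.0% in HT29 2D replicates 1 and 2 and MCS replicates 1 and 2. miR-106b-5p took 8.66% to 10.9% in DLD1, and 11.2% and 29.3% in HT29 2D and 16% and 38.9% in HT29 MCS. In HT29 replicate 2, in either culture, the part of miR-106b-5p was larger and the parts of miR-25-3p and miR-106b-3p were smaller than in replicate 1. miR-106b-3p made up 4.86% and 5.13% in DLD1 2D and 5.97% and 5.45% in DLD1 MCS. In the HT29 libraries it made up 9.54%, 5.63%, 8.53% and 4.01% in the same order. Replicate 1 was also the shallower HT29 library, and the part of depth in these proportions was not tested. Line, medium and kit cannot be told apart where the proportions differ between DLD1 and HT29.

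**Figure D4:**
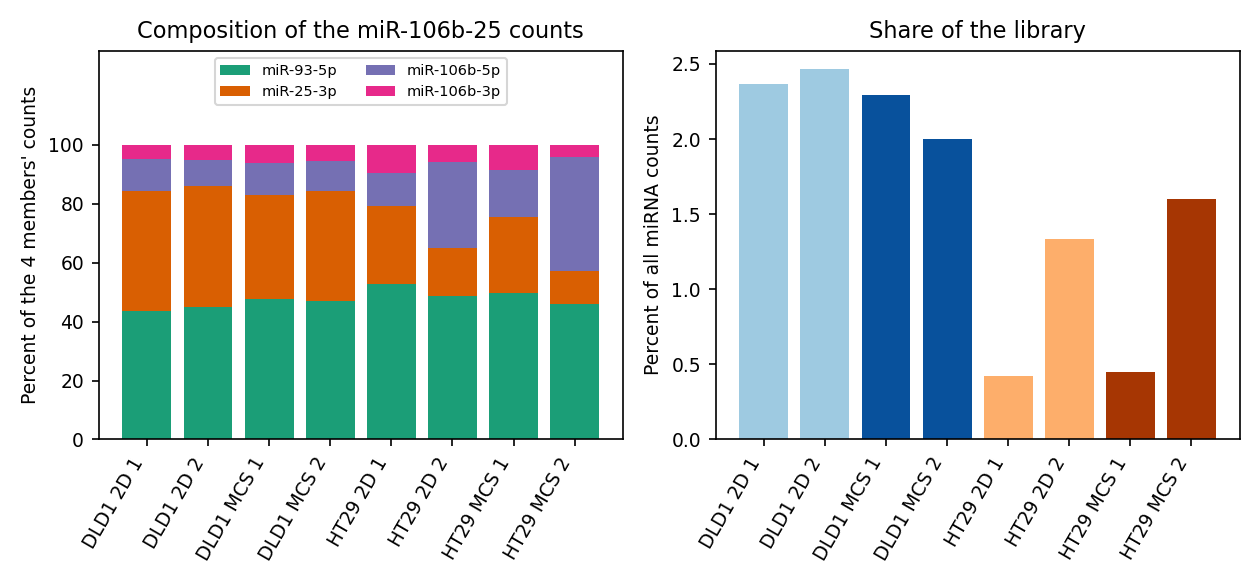
Left, the percent of the summed counts of the 4 miR-106b-25 products that each product holds in every library. Right, the percent of all miRNA counts that the 4 products hold, with bars for single libraries. miR-93-5p holds 43.5% to 52.8% throughout, miR-106b-5p reaches 29.3% and 38.9% in HT29 replicate 2, and the share of the library runs from 2.00% to 2.46% for DLD1 and from 0.420% to 1.60% for HT29.

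The 2 arms of a hairpin were compared by the ratio of their counts in a library, tested with a two-sided exact permutation of the culture labels within the lines, whose smallest p over 36 arrangements is 0.0556. In all, 9 ratios were tested and adjusted together by the Benjamini-Hochberg method. With this smallest p no ratio could pass a threshold of 0.05, so that the values below are descriptions of the libraries. The MIR93 hairpin gave 109 and 114 counts of miR-93-5p for each miR-93-3p in DLD1 2D, 137 and 163 in DLD1 MCS, 124 and 76.1 in HT29 2D, and 154 and 93.0 in HT29 MCS. The ratio was higher in both MCS libraries of DLD1, and with the replicates overlapping in HT29 the exact permutation p was 0.222 (adjusted p = 0.60). MIR25 gave 111 and 75.7 counts of miR-25-3p for each miR-25-5p in DLD1 2D, 129 and 145 in DLD1 MCS, 81.4 and 43.4 in HT29 2D, and 102 and 45.2 in HT29 MCS (exact permutation p = 0.278, adjusted p = 0.60). The DLD1 MCS libraries again lay above the 2D libraries. The 5′ and 3′ arms of MIR106B, by contrast, were both abundant, with 2.20 and 1.69 counts of miR-106b-5p for each miR-106b-3p in DLD1 2D and 1.83 and 1.86 in DLD1 MCS. In HT29 this ratio was 1.18 and 5.21 in 2D and 1.88 and 9.70 in MCS, a wider range between replicates than for any of the other arm ratios (exact permutation p = 0.556, adjusted p = 0.625).

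Between hairpins of the cluster, miR-25-3p had 0.941 and 0.917 counts for each miR-93-5p in DLD1 2D, 0.748 and 0.791 in DLD1 MCS, 0.500 and 0.331 in HT29 2D, and 0.514 and 0.239 in HT29 MCS. The ratio was lower in MCS than in 2D in DLD1, by a mean of 0.27 on the log2 scale, and overlapped in HT29 (exact permutation p = 0.444, adjusted p = 0.625). For miR-106b-5p against miR-93-5p the ratio overlapped between the cultures in both lines, from 0.193 to 0.246 for DLD1 and from 0.213 to 0.845 for HT29 (exact permutation p = 0.50, adjusted p = 0.625).

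The X-linked members were set against their nearest relatives in the same way. miR-106a-5p amounted to 0.834% and 0.803% of the miR-17-5p counts in DLD1 2D, 0.851% and 0.916% in DLD1 MCS, 0.116% and 0.119% in HT29 2D, and 0.131% and 0.134% in HT29 MCS. The MCS libraries lay above the 2D libraries in both lines, by a log2 difference of 0.11 for DLD1 and 0.17 for HT29, and the exact permutation p was the smallest the design allows (0.0556, adjusted p = 0.25). The percentage moved by little within a line, although the HT29 counts of miR-106a-5p ran from 51 to 478. In HT29 replicate 1 it rested on only 52 counts of miR-106a-5p in 2D and 51 in MCS. The part of counting error in the difference between the cultures was not tested. miR-18b-5p amounted to 0.0827% and 0.106% of miR-18a-5p in DLD1 2D, 0.207% and 0.366% in DLD1 MCS, 0.0384% and 0.0983% in HT29 2D, and 0.351% and 0.104% in HT29 MCS, again with MCS above 2D in both lines (exact permutation p = 0.0556, adjusted p = 0.25). These percentages rested on 1 to 30 counts of miR-18b-5p, and miR-18a-5p itself was down-regulated in DLD1 MCS. For miR-20b-5p against miR-106a-5p the exact permutation p was 0.778 (adjusted p = 0.778), with 2.12% and 4.22% in DLD1 2D, 4.84% and 6.73% in DLD1 MCS, 71.2% and 20.1% in HT29 2D, and 45.1% and 14.0% in HT29 MCS. miR-106a-5p came to 0.440% to 1.05% of miR-106b-5p, its counterpart in the other cluster, over the 8 libraries (exact permutation p = 0.333, adjusted p = 0.60).

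**Figure D5:**
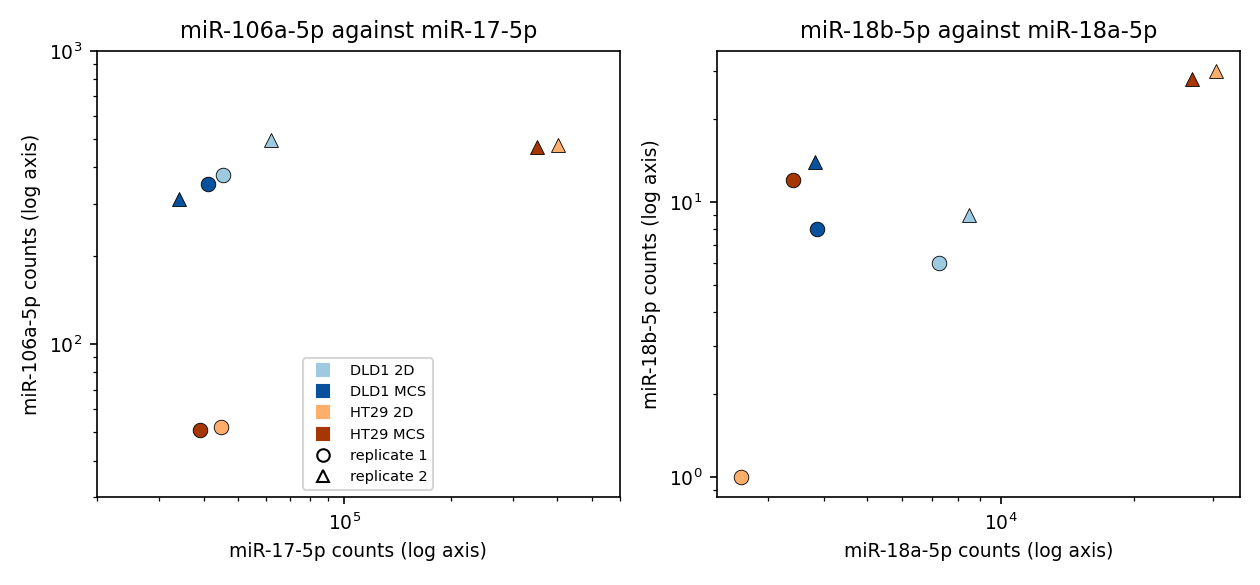
Counts of miR-106a-5p against miR-17-5p (left) and of miR-18b-5p against miR-18a-5p (right), 1 point per library, both axes logarithmic, with circles for replicate 1 and triangles for replicate 2. DLD1 libraries hold 312 to 498 counts of miR-106a-5p and HT29 libraries 51 to 478, and miR-18b-5p does not exceed 30 counts.

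Among all miRNAs with the seed AAAGUGC, 8 of 8 in the reference were listed, and together they took 1.67% to 2.02% of the DLD1 and 2.00% to 5.69% of the HT29 counts. miR-93-5p provided 52.4% to 57.1% of these counts in DLD1 and 8.58% to 12.9% in HT29, where miR-20a-5p of the miR-17-92 cluster provided 40.3% to 73.0%. Line, medium and kit cannot be told apart in these differences between DLD1 and HT29, nor in those that follow. miR-106b-5p provided 11.0% to 12.9% in DLD1 and from 1.83% up to 10.9% in HT29. The X-linked members were minor, miR-106a-5p with at most 0.122% and miR-20b-5p with at most 0.0136% in any library. Of the 6 miRNAs with the seed AUUGCAC, 5 were listed, and miR-25-3p provided 22.2% to 25.0% of their counts in DLD1 and 11.4% to 19.4% in HT29, most of the others being miR-92a-3p.

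The other genes of this family were read in the same fits. Of the 12 listed miR-17-92 products, 10 were tested in DLD1, 1 was up-regulated and 1 was down-regulated, where 41.3% of all tested miRNAs were called, with a median log2 fold change of -0.01 against 0.23 over all tested miRNAs. miR-19b-3p, which the X-linked cluster gives as well, was the one up-regulated (0.61 ± 0.23, SE, edgeR adjusted p = 0.0208), and miR-18a-5p the one down-regulated (-0.61 ± 0.24, edgeR adjusted p = 0.0270). The call of miR-19b-3p was lost under each of the other 4 scalings (0.19 to 0.52) and without DLD1 MCS replicate 1 (0.17) or 2D replicate 2 (0.26), whereas miR-18a-5p was called under each scaling and lost without 2D replicate 1 (-0.45), without MCS replicate 1 (-0.64) and with the replicate block (-0.59). In HT29 0 of 9 were called by the same edgeR test. Of the 10 other products of the members' clusters, 4 were listed, miR-93-3p, miR-25-5p, miR-19b-3p and miR-92a-3p. The passenger strands miR-25-5p and miR-93-3p had log2 fold changes of -0.58 ± 0.27 and -0.12 ± 0.27 (SE) in DLD1 with edgeR adjusted p of 0.0748 and 0.716. Among the remaining miRNAs that share a member's seed, miR-32-5p was up-regulated in DLD1 (1.12 ± 0.31, SE, edgeR adjusted p = 0.00116), from 36.1 and 20.7 normalized CPM in 2D to 59.6 and 63.9 in MCS. That call was lost with the upper quartile of tested miRNAs alone (0.65) and without 2D replicate 2 (0.65), MCS replicate 1 (1.02) or MCS replicate 2 (1.02). The calls of miR-19b-3p, miR-18a-5p and miR-32-5p were also lost with all 8 libraries in 1 fit. In the DLD1 fit miR-92b-3p had -0.41 ± 0.23 (edgeR adjusted p = 0.137) and miR-519d-3p and miR-526b-3p were too low to test.

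Finally, the miRNAs whose pattern was most like that of the leading member of each cluster were found by the root mean square difference of log2 levels, centred within each line, over the 8 libraries. Outside the lists above, and among 232 miRNAs, miR-652-3p (0.106), miR-3615 (0.128) and miR-10a-3p (0.130) were closest to miR-93-5p, where the median was 0.471. The other members lay further off, miR-106a-5p at 0.238, miR-106b-3p at 0.308, miR-25-3p at 0.338 and miR-106b-5p at 0.554, so that miR-106b-5p was farther from miR-93-5p than the median miRNA. For miR-106a-5p the closest were miR-15a-5p (0.196), miR-125a-5p (0.200) and miR-32-3p (0.200), with a median of 0.571, and miR-17-5p was closer than any of the 232 (0.0826). These values are descriptions over 8 libraries. The scaling of a library is the same for both miRNAs and cancels from their difference, except through the pseudocount of 1. The spread between replicates enters as well. In HT29 2D, miR-106b-5p had 904 and 2355 normalized CPM and miR-93-5p 4245 and 3920. How reads that fit both miR-106a-5p and miR-17-5p were assigned is not given, and its part in their closeness was not tested.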

How the data were processed

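The authors removed adapters and random end bases with Cutadapt, aligned reads to GRCh37 with Bowtie2 and identified mature miRNAs from miRBase. They deposited raw counts per mature miRNA, without normalization or pooling. Of 12572 values compared between single-library and joint files, 0 differed. In HT29 2D replicate 2, 15 entries naming no miRNA held 2590 counts (0.00988%) and were left out. Samples were grouped by the submitters' labels. The labels call the 2 libraries of a group biological replicates.

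Counts were analysed with edgeR 4.0.16 (R 4.3.3), using upper quartile factors from every miRNA counted at least 1 time in a line, a mean of at least 10 CPM, the quasi-likelihood test without a replicate term, and Benjamini-Hochberg adjustment over all tested miRNAs. The study's methods name upper quartile scaling, a minimum of 10 CPM and a fold of 1.5. They name a Fisher exact test, in whose place the quasi-likelihood test was used. Likeness used a pseudocount of 1 on normalized CPM. Scripts were tested on simulated data. Sequences came from RefSeq and positions from GENCODE 44 on GRCh37. Alternatives were other scalings, DESeq2 1.42.0, edgeR's exact test, other filters and thresholds, a replicate block and each library left out. All 8 members, their relatives and the 3 miRNAs most like each leading member were named by rule. Members and lists were chosen with earlier results of these data known.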

Additional observations from a re-analysis of the deposited data

How the results depend on the processing

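No member was called in DLD1, HT29 or the interaction under any alternative run. Of 222 alternative member values 190 kept their direction and 32 turned, and of 90 alternative ratio values 82 kept it and 8 turned. The values that kept their direction include some that could not turn. For members these were the settings with unadjusted p and with no fold change threshold, which reuse the main fit. For ratios it was the replicate block, whose mean difference equals the main one. The ratios could not pass the threshold in any arrangement of these labels.

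In DLD1 the 143 calls became 30 with all 8 libraries in 1 fit, and 92 to 124 with each library left out, the fewest without 2D replicate 2. Calls in HT29 rose from 0 to 12 with DESeq2, 5 with the exact test, 15 without the filter, 12 with unadjusted p and 0 to 2 with each library left out. In the interaction they rose from 0 to 1 with TMM factors, 21 with DESeq2, 21 without the filter and 0 to 2 with each library left out. The calls in DLD1 were 76 up and 62 down with TMM, 89 and 50 with RLE, 60 and 83 with library totals, 49 and 93 with the upper quartile over tested miRNAs, and 71 and 65 with DESeq2. The cause of these differences was not tested. Leaving out a library also means fewer samples, and leaving out the filter also means more miRNAs.

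Replicate numbers are shared across the cultures, but no source says that they pair the libraries. The correlation of the replicates' deviations was 0.32 in DLD1 and 0.79 in HT29. With the replicate number as a block, 139 miRNAs were called in DLD1, 47 in HT29 and 40 in the interaction, and 0 members in each. Exchanging labels only within line and number, the smallest possible p is 0.125, and 5 of the 9 ratios reached it in an exact permutation test. In all 4 comparisons of same-numbered libraries, MCS was higher for miR-93-5p to miR-93-3p, miR-25-3p to miR-25-5p, miR-106a-5p to miR-17-5p and miR-18b-5p to miR-18a-5p, and lower for miR-106a-5p to miR-106b-5p. Several of the 9 ratios share a miRNA, so they are not separate results. How many ratios of other miRNAs would go in a single direction was not tested.

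DLD1 values that turned were, with library totals, -0.041 for miR-106b-5p, -0.073 for miR-93-5p, -0.35 for miR-25-3p and -0.32 for miR-106a-5p; with the upper quartile over tested miRNAs, -0.14 for miR-106b-5p, -0.057 for miR-106b-3p, -0.16 for miR-93-5p, -0.43 for miR-25-3p (edgeR adjusted p = 0.0347, under 1.5-fold) and -0.42 for miR-106a-5p. miR-25-3p and miR-106a-5p also turned with TMM (-0.17 and -0.16), RLE (-0.091 and -0.080) and DESeq2 (-0.21 and -0.20). In HT29, miR-93-5p turned to 0.14 with library totals and miR-106a-5p to -0.075 with the upper quartile over tested miRNAs. In the interaction, miR-93-5p turned to 0.21 and miR-25-3p to 0.18 with library totals.

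With each library left out, the DLD1 log2 fold changes ran from 0.05 to 0.36 for miR-106b-5p, 0.23 to 0.31 for miR-106b-3p, 0.10 to 0.26 for miR-93-5p, -0.21 to 0.026 for miR-25-3p and -0.26 to 0.10 for miR-106a-5p. In HT29 they ran from -0.78 to 1.37 for miR-106b-5p, -0.81 to 0.028 for miR-106b-3p and -0.47 to 0.19 for miR-93-5p. For miR-25-3p they ran from -0.75 to 0.035 and for miR-106a-5p from 0.13 to 0.75. Without HT29 MCS replicate 2, miR-106a-5p fell below the filter and was not tested. It also failed the alternative filter that requires at least 10 CPM in every library. In the interaction, the values with each library left out ran from -1.09 to 1.14 for miR-106b-5p and -0.73 to 0.024 for miR-25-3p. The ratios ran from -0.087 to 0.66 for miR-106b-5p to miR-93-5p, -0.52 to 0.032 for miR-25-3p to miR-93-5p, -0.23 to 0.95 for miR-106b-5p to miR-106b-3p and -0.28 to 0.63 for miR-20b-5p to miR-106a-5p.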
